A study of Mus musculus with 4 samples.

Results

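The Ms4a genes encode small proteins with 4 membrane-spanning segments, and several of them are marks of single blood lineages. The 9 genes described here (Ms4a1, Ms4a2, Ms4a3, Ms4a4b, Ms4a4c, Ms4a6b, Ms4a6c, Ms4a6d and Ms4a7) were found through the platform annotation, which gives each of them 1 probe set, among 19938 named genes on the array. They were measured in mouse colony-forming cells of C57BL/6 background on 4 Affymetrix arrays, 1 for each combination of a starting population and a transduction. The starting cells were haematopoietic stem cells of the long-term or short-term kind (LT-HSC, ST-HSC), transduced with mock or with CreER, a Cre recombinase that acts in the nucleus once an oestrogen receptor ligand binds it. Each array is named by its population and transduction, as in LT-HSC mock. All 4 were grown as colonies in methylcellulose with GM-CSF, SCF and the interleukins IL-3 and IL-6, cytokines that favour myeloid and mast cell growth. The series title speaks of conditional expression of the leukaemia fusion MLL-ENL, and the sources used here give neither the allele nor whether CreER was activated. A CreER minus mock difference therefore compares transductions only. The stated aim was a first screen for genes of leukaemic transformation, by CreER against mock and LT-HSC against ST-HSC.

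Ms4a2 is the beta chain of the high-affinity IgE receptor, which mast cells and basophils carry together with the alpha chain Fcer1a and the gamma chain Fcer1g, and it amplifies the signal that leads to degranulation. Ms4a3 marks granulocyte and monocyte progenitors, and Ms4a6c, Ms4a6d and Ms4a7 are best known from monocytes and macrophages. Ms4a6b is a relative of Ms4a6c. Ms4a1 is CD20 of B cells, and Ms4a4b is known from T cells. The genes lie in a cluster on chromosome 19. In older nomenclature the symbols of Ms4a1 and Ms4a2 were exchanged, so probe sets were also matched to RefSeq by gene number.

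RefSeq promoters of assembly GRCm38.p6 were found for 7 of the 9 genes, as 8 windows, since Ms4a7 has a pair of annotated starts. The 250 bases before the start are shown for the 4 of these genes whose signal stood clear of background on at least 1 array, and for Ms4a6b as the relative of Ms4a6c. They are read 5′ to 3′ on the strand of the gene, and capitals mark AGATAA or TGATAA, letters that GATA factors can bind, in Ms4a2, and GGAAGT, letters that ETS factors such as PU.1 can bind, in the others, each on either strand. The windows are chr19:11623720-11623969 on the minus strand for Ms4a2, chr19:11640852-11641101 on the minus strand for Ms4a3, chr19:11469118-11469367 on the plus strand for Ms4a6c, chr19:11518309-11518558 on the plus strand for Ms4a6b and chr19:11336147-11336396 on the minus strand for the upstream start of Ms4a7.
Ms4a2: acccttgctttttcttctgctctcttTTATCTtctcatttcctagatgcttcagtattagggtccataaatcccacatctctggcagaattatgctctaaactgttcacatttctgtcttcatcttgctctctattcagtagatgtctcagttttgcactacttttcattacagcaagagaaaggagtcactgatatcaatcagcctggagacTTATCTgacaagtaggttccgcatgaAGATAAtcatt
Ms4a3: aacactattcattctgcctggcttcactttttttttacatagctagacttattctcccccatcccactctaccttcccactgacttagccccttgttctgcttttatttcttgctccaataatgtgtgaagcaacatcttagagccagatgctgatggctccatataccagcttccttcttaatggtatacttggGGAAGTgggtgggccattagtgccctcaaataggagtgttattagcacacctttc
Ms4a6c: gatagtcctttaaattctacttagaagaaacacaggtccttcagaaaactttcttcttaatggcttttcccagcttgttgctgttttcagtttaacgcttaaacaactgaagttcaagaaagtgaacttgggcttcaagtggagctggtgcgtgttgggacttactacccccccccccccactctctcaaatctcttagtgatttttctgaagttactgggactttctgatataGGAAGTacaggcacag
Ms4a6b: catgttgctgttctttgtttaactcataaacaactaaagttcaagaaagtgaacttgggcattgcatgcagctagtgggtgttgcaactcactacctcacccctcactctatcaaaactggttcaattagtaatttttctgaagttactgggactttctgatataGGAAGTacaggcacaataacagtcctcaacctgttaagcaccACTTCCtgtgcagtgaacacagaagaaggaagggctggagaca
Ms4a7: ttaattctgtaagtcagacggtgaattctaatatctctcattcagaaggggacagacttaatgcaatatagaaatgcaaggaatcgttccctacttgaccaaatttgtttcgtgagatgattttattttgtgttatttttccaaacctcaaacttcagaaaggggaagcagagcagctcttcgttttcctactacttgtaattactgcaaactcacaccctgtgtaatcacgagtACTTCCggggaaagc

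The Ms4a2 window held 3 matches to AGATAA or TGATAA, which began 224, 37 and 11 bases before the start. Such a match stood in 2 of the 8 windows, the other being that of the downstream start of Ms4a7, and in 16.6% of all 32851 promoter windows cut to the same 250 bases. GGAAGT stood in 6 of the 8 windows and in 19.7% of all windows. GAGGAA stood in 2 of the 8 against 23.3%, TGTGGT in 1 against 14.0% and TTGCNNAA in 0 against 9.56%. GAGGAA can overlap GGAAGT by shared letters, and none of the windows shown held GAGGAA. These counts describe letters, and binding was not measured. Ms4a6c and Ms4a6b shared an unbroken run of 48 bases that begins 49 bases before the start of Ms4a6c and 118 bases before that of Ms4a6b, and that holds a GGAAGT of each:
shared run: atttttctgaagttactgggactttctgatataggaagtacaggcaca

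Over the whole 300-base windows, global alignment gave 52.3% identity for Ms4a6b and Ms4a6c, but their best local alignment matched at 82.5% over 234 positions. Ms4a4b and Ms4a4c had the highest global identity, 73.8%, and all other pairs of different genes lay between 44.6% and 53.6%.

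The 4 arrays had medians between 7.75 and 7.82 on the log2 scale. A signal floor was set at each array's median over probe sets with 1 gene symbol, which lay between 8.07 and 8.13, and levels under it were treated as uncertain. With 1 array per group no difference between arrays could be checked against replicates, and precision is limited by the number of arrays. Lineage marker lists gave the setting for the Ms4a values. The mast cell and basophil list (12 of 13 genes measured) had a summed signal of 9074 on ST-HSC mock, 13700 on ST-HSC CreER, 36130 on LT-HSC CreER and 43810 on LT-HSC mock, as the sum of the values with the log undone. That of the monocyte and macrophage list (17 of 18 measured) was lowest on LT-HSC CreER, at 32980, against 43880 to 51800 on the other arrays. That of the progenitor and primary granule list (11 of 11) was lowest on LT-HSC mock, at 54590, against 71660 to 78120. The neutrophil list (12 of 12) lay between 98100 and 138800 and the eosinophil list (7 of 9) between 7273 and 22550. In colonies of mixed cells, fewer cells of a type and less RNA per cell cannot be told apart. The labels name stem cells as the cell type, whereas the RNA came from their colonies, in which granule genes such as Mpo (13.37 to 13.71) were far above the floor.

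**Figure D1:**
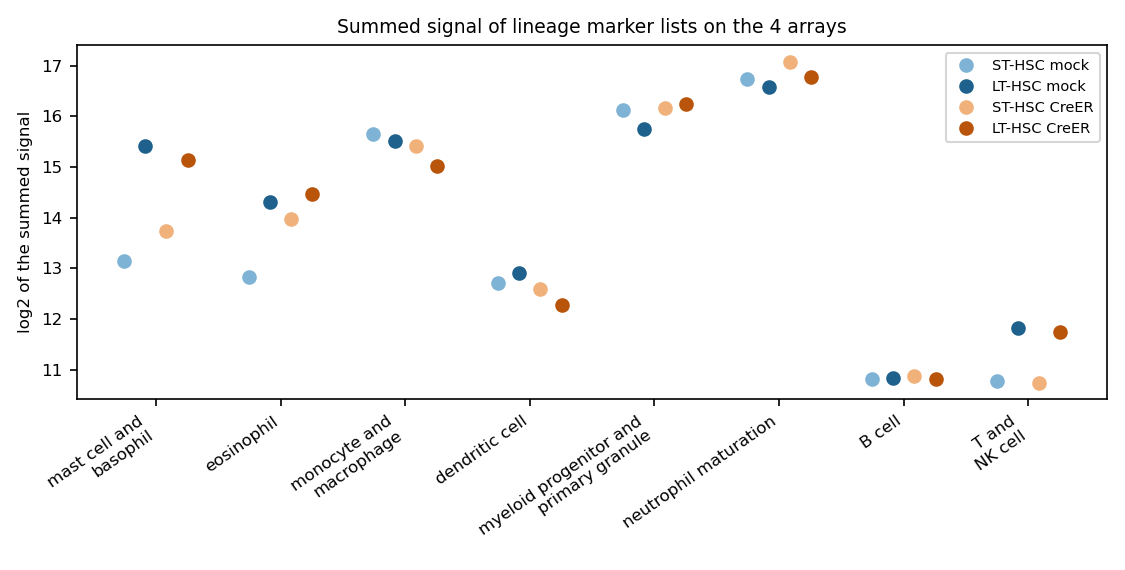
Summed signal of 8 lineage marker lists on the 4 arrays, on a log2 axis, 1 point per array. The mast cell and basophil points of the LT-HSC arrays (15.42 and 15.14) lie above those of the ST-HSC arrays (13.15 and 13.74), and the B cell points lie between 10.81 and 10.87.

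Ms4a2 was higher in LT-HSC-derived than in ST-HSC-derived colonies under both transductions. Its log2 level was 7.89 on ST-HSC mock, 8.60 on ST-HSC CreER, 9.59 on LT-HSC CreER and 10.07 on LT-HSC mock. The ST-HSC mock level was under the signal floor. The LT-HSC minus ST-HSC difference was 2.18 with mock, or 4.53-fold, of uncertain size because of the low level on ST-HSC mock. With CreER it was 0.99, just short of 2-fold. Among genes past the floor, 0.666% had a difference at least as large with mock and 2.0% with CreER.

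CreER went with opposite differences of Ms4a2 in the populations, at 0.71 in ST-HSC-derived and -0.48 in LT-HSC-derived colonies. The difference between these CreER effects was -1.19, and 0.941% of genes that passed the floor anywhere had one as large. With 1 array per group it could not be tested.

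The partners of Ms4a2 in the IgE receptor did not share one pattern. Fcer1a, the chain that binds IgE, was at 7.61 on ST-HSC mock, 8.62 on ST-HSC CreER, 9.09 on LT-HSC CreER and 10.39 on LT-HSC mock. These arrays stand in the same order as for Ms4a2, and the LT-HSC minus ST-HSC difference was 2.79 with mock and 0.47 with CreER. Fcer1g, a signalling chain that other Fc receptors of myeloid cells also use, lay between 13.72 and 13.91 on all 4 arrays.

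Of 17 measured genes of the IgE receptor and its signalling, all past the floor, 3 were at least 2-fold higher on LT-HSC mock than on ST-HSC mock and 0 were lower, against 3.12% of all genes past the floor that were 2-fold apart. The 3 were Fcer1a, the adaptor Lat (2.39) and the kinase Fyn (2.03), and Lat2, a relative of Lat, followed at 0.61. All 3 stood under the floor on ST-HSC mock, Lat at 7.93 and Fyn at 7.54, and passed only through LT-HSC mock, so the sizes of their differences are uncertain. With CreER 2 of 17 were at least 2-fold higher in LT-HSC-derived cells, Lat (1.65) and Fyn (1.30). The share of all genes past the floor that were 2-fold apart was 1.94%. Fyn was under the floor on ST-HSC CreER. The list's median was 0.19 with mock and -0.00 with CreER, against -0.03 and -0.02 over all genes past the floor. Most of the list, such as the kinase Syk (11.34 to 11.52) and the phosphatase Inpp5d (11.76 to 11.85), varied little.

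The mast cell and basophil markers stood high on the same arrays as Ms4a2. Of 12 measured markers, 11 were above 0 for LT-HSC mock minus ST-HSC mock, with a median of 2.22. Of the 12, 9 were at least 2-fold higher, against 3.12% of all genes past the floor that were 2-fold apart in either direction. The transcription factor Gata2, above the floor on both arrays, was higher by 3.02. Fcer1a, Tpsb2, the basophil receptor Cd200r3 (6.97) and the serotonin synthesis enzyme Tph1 (7.13) were under the floor on ST-HSC mock and entered only through LT-HSC mock, so the sizes of their differences are uncertain. The 3 mast cell protease genes that were not 2-fold higher, Tpsab1 (-0.06), Mcpt4 (0.19) and Cma1 (0.77), were under the floor on all 4 arrays. With CreER 5 of 12, 9 of them past the floor, were at least 2-fold higher, against 1.94% of all genes past the floor that were 2-fold apart in either direction. Among the 5, Cd200r3 (7.23) was under the floor on ST-HSC CreER and entered only through LT-HSC CreER. The median over the 12 with CreER was 0.64. Eosinophil genes were also higher on LT-HSC mock than on ST-HSC mock, 7 of 7 above 0 with a median of 0.39. Of the 7, Ccr3 and Il5ra were under the floor on all 4 arrays, which left 5 past it. At least 2-fold higher were 3, the granule genes Prg2 (2.12), Prg3 (1.97) and Epx (1.92), against the same 3.12% of all genes. With CreER 0 of the 7 were, against 1.94% of all genes past the floor, and the median was 0.34. Prg2 and Prg3 had the array order of Ms4a2. The part of mast cells, basophils or eosinophils in the Ms4a2 difference was not tested.

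Ms4a3 was lowest on LT-HSC mock. Its level was 12.55 there, against 13.16 on LT-HSC CreER, 13.29 on ST-HSC mock and 13.30 on ST-HSC CreER, all far above the floor. The 3 other arrays lay within 0.14 of each other. The LT-HSC minus ST-HSC difference was -0.74 with mock and -0.14 with CreER, and CreER minus mock was 0.61 in colonies from LT-HSC and 0.01 in those from ST-HSC. Of genes past the floor, 3.70% differed by at least as much as Ms4a3 between the LT-HSC arrays, and 5.07% between the mock arrays.

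Other genes of granulocyte and monocyte progenitors stood beside Ms4a3 as follows. All 11 of the progenitor and primary granule list were above 0 for LT-HSC CreER minus LT-HSC mock. Their median was 0.50, against -0.03 over all genes past the floor. Of the 11, 2 were at least 2-fold higher, against 0.875% of all genes past the floor that were 2-fold apart. These 2 were Fcnb, a ficolin of immature myeloid cells (1.65), and the stem and progenitor antigen Cd34 (1.13), followed by the serine protease Prtn3 (0.89) and Nkg7 (0.63). Prtn3 was at 12.58 on LT-HSC mock and between 13.34 and 13.47 on the 3 other arrays. For LT-HSC mock minus ST-HSC mock, 9 of 11 were below 0, Fcnb at -2.39, and Cd34, under the floor on ST-HSC mock, went the other way at 1.82. In ST-HSC-derived colonies the list's median for CreER minus mock was -0.01.

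**Figure D2:**
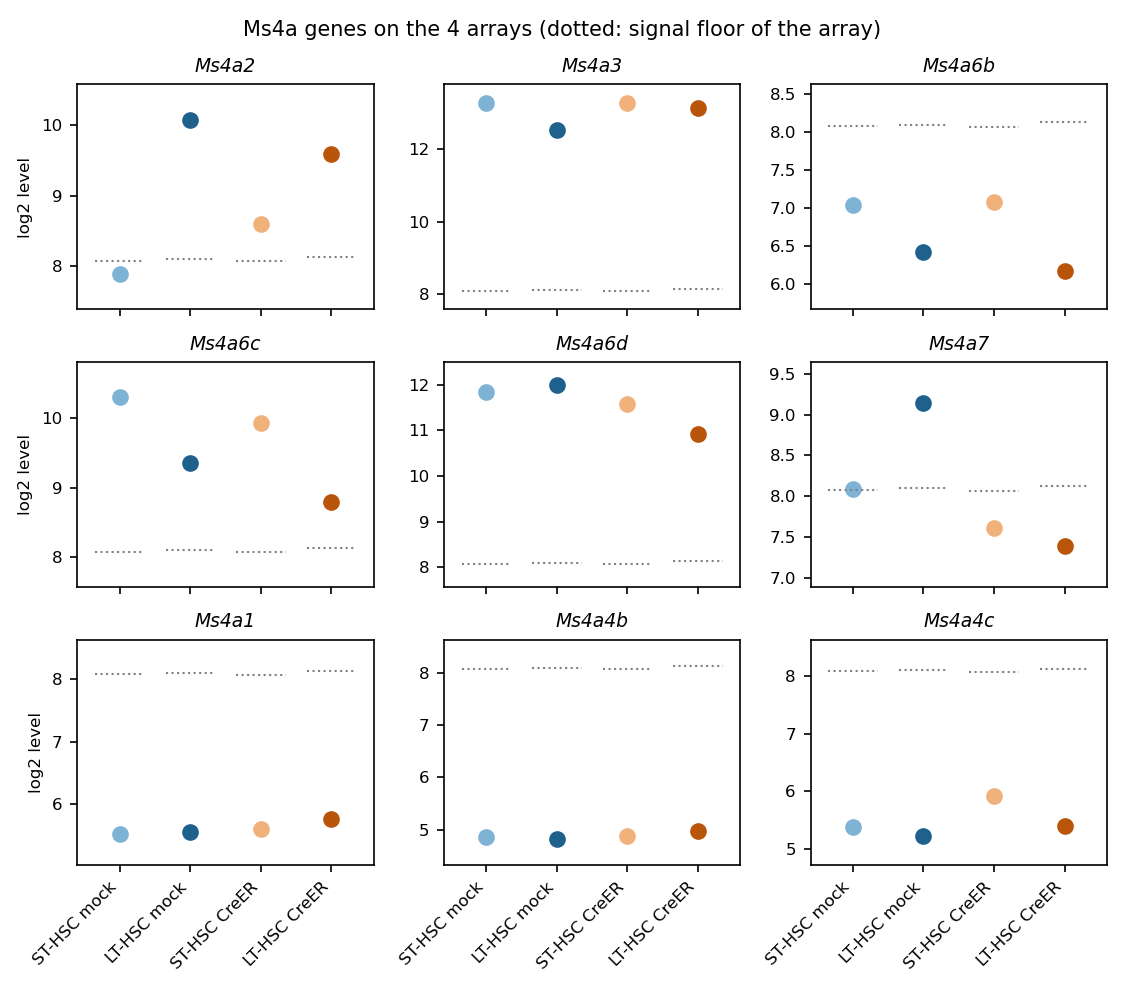
Log2 level of the 9 Ms4a genes on each of the 4 arrays, 1 point per array, with each array's signal floor as a dotted line and a separate vertical scale for each gene. Ms4a2 is highest on LT-HSC mock (10.07), Ms4a3 is lowest there (12.55), and Ms4a1, Ms4a4b, Ms4a4c and Ms4a6b lie under the floor on all 4 arrays.

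The monocyte and macrophage members differed from Ms4a2 and from each other. Ms4a6c was lower in LT-HSC-derived colonies under both transductions, at 10.31 on ST-HSC mock and 9.93 on ST-HSC CreER, against 8.80 on LT-HSC CreER and 9.36 on LT-HSC mock. All 4 levels were above the floor. LT-HSC minus ST-HSC was -0.95 with mock and -1.12 with CreER, the latter past 2-fold. CreER minus mock was -0.56 in colonies from LT-HSC and -0.39 in those from ST-HSC, so LT-HSC CreER had the lowest level.

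Ms4a6b, a close relative of Ms4a6c, stood under the floor on all 4 arrays, at 7.04 on ST-HSC mock, 7.09 on ST-HSC CreER, 6.17 on LT-HSC CreER and 6.42 on LT-HSC mock. Its ST-HSC levels were also above its LT-HSC levels, by 0.61 with mock and 0.92 with CreER, sizes that are uncertain at such signal. Genes of the Ms4a6 group resemble each other, and probe sequences were not used here, so signal shared between their probe sets cannot be told apart.

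Ms4a6d was high on 3 arrays and lowest on LT-HSC CreER. Its level was 11.99 on LT-HSC mock, 11.84 on ST-HSC mock, 11.57 on ST-HSC CreER and 10.92 on LT-HSC CreER. CreER minus mock was -1.07 in LT-HSC-derived colonies, past 2-fold, and -0.27 in ST-HSC-derived ones. LT-HSC minus ST-HSC was 0.15 with mock and -0.65 with CreER. Among genes past the floor, 0.698% differed by as much between the LT-HSC arrays.

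Ms4a7 stood out on LT-HSC mock alone. It was at 9.14 there, at 8.09 on ST-HSC mock, level with the floor, and under the floor at 7.61 on ST-HSC CreER and 7.39 on LT-HSC CreER. CreER minus mock was -1.75 in LT-HSC-derived colonies, or 3.36-fold lower, a size that is uncertain because the CreER level was under the floor, and 0.0688% of genes past the floor differed by as much. In ST-HSC-derived colonies it was -0.48. LT-HSC minus ST-HSC was 1.05 with mock and -0.21 with CreER, where both levels were under the floor.

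The monocyte and macrophage markers were lower on LT-HSC CreER than on LT-HSC mock in 9 of 12 genes past the floor, with a median of -0.46 against -0.03 over all genes, and 3 of the 12 were at least 2-fold lower, against 0.875% of all genes past the floor that were 2-fold apart. Over all 17 measured genes the median was -0.40. These 3 were the mannose receptor Mrc1 (-1.32), the phagocytosis receptor Mertk (-1.21, to a level under the floor) and the lipid receptor Trem2 (-1.12). Of 13 measured dendritic cell genes, 8 were below 0 there and 5 above, with a median of -0.11. The 7 past the floor were all below 0, with a median of -0.74, Itgax at -1.63 and Irf4 at -1.03, whereas Flt3, under the floor, was at 0.88. For LT-HSC mock minus ST-HSC mock the macrophage median was 0.01. The chemokine receptor Ccr2 (-1.25) was the only marker of the 12 that was 2-fold apart, against 3.12% of all genes past the floor. Some complement and scavenger genes were too dim to call: C1qa, C1qb, C1qc, Cd163 and Marco were under the floor on all 4 arrays. The part of macrophages or dendritic cells in the Ms4a differences was not tested.

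Ms4a1 (CD20), Ms4a4b and Ms4a4c were under the floor on all 4 arrays. Ms4a1 lay between 5.53 and 5.77, Ms4a4b between 4.83 and 4.97, and Ms4a4c between 5.22 and 5.91. The highest of these levels was that of Ms4a4c on ST-HSC CreER. The B cell list was low as well, with 2 of 9 measured genes above the floor on 3 arrays and 1 of 9 on LT-HSC CreER, and the B cell factors Pax5 and Ebf1 under it on all 4. Of 10 T and NK cell genes, 1 was above the floor, Thy1 (9.26 to 11.35), which mast cells of mice also carry.

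By the size rule, at least 2-fold apart with the higher level above the floor, 2 of the 9 members, 5 of them past the floor, differed between LT-HSC mock and ST-HSC mock, Ms4a2 and Ms4a7, both higher on LT-HSC mock, against 3.12% of 10208 genes. For LT-HSC CreER against ST-HSC CreER it was 1, Ms4a6c, with 4 past the floor, lower on LT-HSC CreER, against 1.94% of 10189. Between LT-HSC CreER and LT-HSC mock 2 differed, Ms4a6d and Ms4a7, with 5 past the floor, both lower with CreER, against 0.875% of 10172. Between ST-HSC CreER and ST-HSC mock 0 did, with 5 past the floor, against 0.518% of 10047, and the largest difference there was the 0.71 of Ms4a2. Each array enters a pair of these comparisons, so they are not separate observations. Ms4a2 on ST-HSC mock and Ms4a7 on LT-HSC CreER were under the floor, and Ms4a7 on ST-HSC mock was level with it. Their calls thus pass through LT-HSC mock, and the sizes are uncertain.

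**Figure D3:**
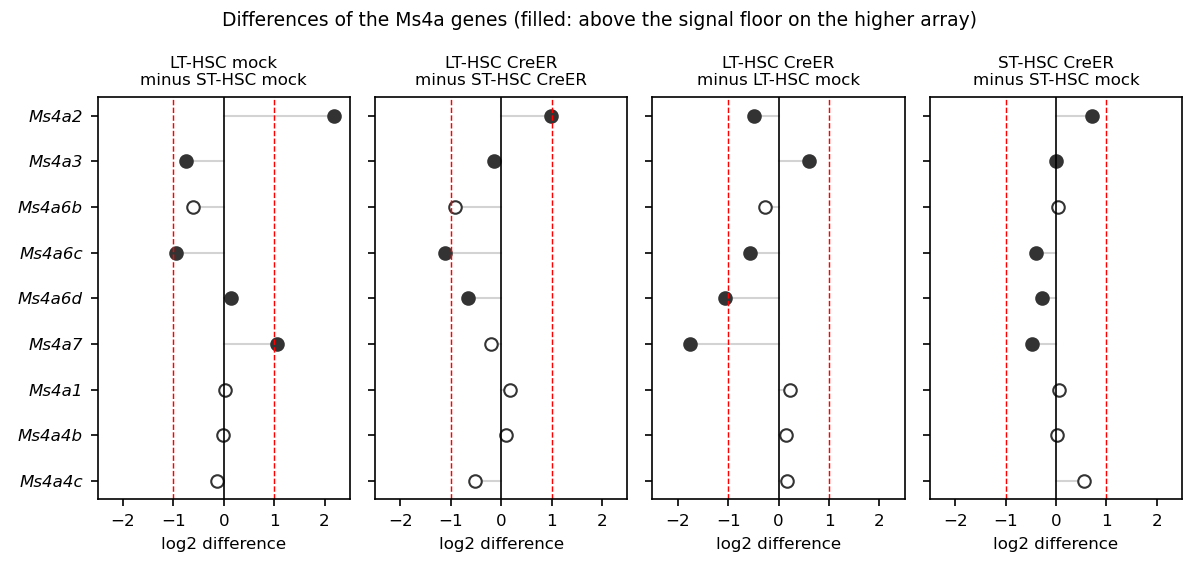
Log2 difference of each Ms4a gene in the 4 comparisons, 1 point per gene, filled where the higher level is above the signal floor, with dashed lines at 2-fold. Ms4a2 lies at 2.18 between the mock arrays and Ms4a7 at -1.75 between the LT-HSC arrays.

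An additive model of population and transduction over all 4 arrays, fitted with limma to 10411 genes, took in the 5 members that passed the floor anywhere and has 1 residual degree of freedom. For LT-HSC against ST-HSC, 2 of the 5 passed a Benjamini-Hochberg adjusted p of 0.05, against 6.27% of all genes. Ms4a6c was lower in LT-HSC-derived cells, with a mean of 9.08 against 10.12 and an effect of -1.04 (SE 0.10, limma adjusted p = 0.0102). Ms4a2 was higher, with a mean of 9.83 against 8.24 and an effect of 1.58 (SE 0.28, limma adjusted p = 0.0405), but it missed the threshold under 4 of the 8 alternatives, among them quantile normalization. The additive model left a residual SD of 0.60 for Ms4a2 and 0.09 for Ms4a6c, against a median of 0.0744 over all genes. In this layout the residual stems from the difference between a gene's CreER effects in the populations, which for Ms4a2 was -1.19. Ms4a3 had a limma adjusted p of 0.172 for an effect of -0.44, Ms4a6d of 0.489 and Ms4a7 of 0.427.

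For CreER against mock 0 of the 5 members passed in limma, against 0.0% of all genes, while 3 of 5 had an unadjusted p under 0.05, against 10.1% of all genes. Those 3 were all lower with CreER. They were Ms4a7, with an effect of -1.12 (SE 0.29, limma adjusted p = 0.368), Ms4a6d at -0.67 (SE 0.20) and Ms4a6c at -0.47 (SE 0.10). The effect was 0.31 for Ms4a3 and 0.11 for Ms4a2. Nothing in the labels says whether the cultures are from different animals. The residual behind these p-values comes from unlike CreER effects in LT-HSC-derived and ST-HSC-derived colonies, moderated over all genes. It does not measure a spread between replicate cultures.

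The 4 members that met the size rule in some comparison were set beside the genes whose profile over the 4 arrays, centred on its own mean, lay nearest by Euclidean distance in log2 units, among 10047 genes. With only 4 arrays this likeness is a description. Nearest to Ms4a2 were the transglutaminase Tgm1 (0.28), the growth factor Hbegf (0.29), Ptprcap (0.29), the mast cell carboxypeptidase Cpa3 (0.32) and the cadherin Cdh1 (0.34). Ms4a6c had the RNA-editing enzyme gene Apobec1 nearest (0.05), then Gpr171 (0.12), Igf2bp3 (0.14), Ifi203 (0.14) and Fabp7 (0.14). Under the floor were Hbegf on ST-HSC mock, Igf2bp3 on both LT-HSC arrays and Fabp7 on LT-HSC CreER. Apobec1 stood at 11.37 on ST-HSC mock, 11.00 on ST-HSC CreER, 9.93 on LT-HSC CreER and 10.43 on LT-HSC mock.

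Nearest to Ms4a6d was Trem2 (0.05), followed by Rab3il1 (0.11), P2ry10b (0.11), the receptor kinase Axl (0.13) and Vwa5a (0.13). Trem2 was at 11.13 on ST-HSC mock, 11.31 on LT-HSC mock, 10.82 on ST-HSC CreER and 10.19 on LT-HSC CreER. Ms4a7 had the cathepsin gene Ctsk nearest (0.21), then the integrin Itgax (0.42), Mcoln3 (0.47), the carbonic anhydrase Car6 (0.47) and the hypoxia factor Epas1 (0.50). These distances were larger than those around Ms4a6c and Ms4a6d. Car6 was above the floor on LT-HSC mock alone, and Epas1 was under it on LT-HSC CreER. Likeness to Ms4a7, itself under the floor on both CreER arrays, thus rests partly on uncertain levels. No gene appeared among the 5 nearest of more than 1 member.

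**Figure D4:**
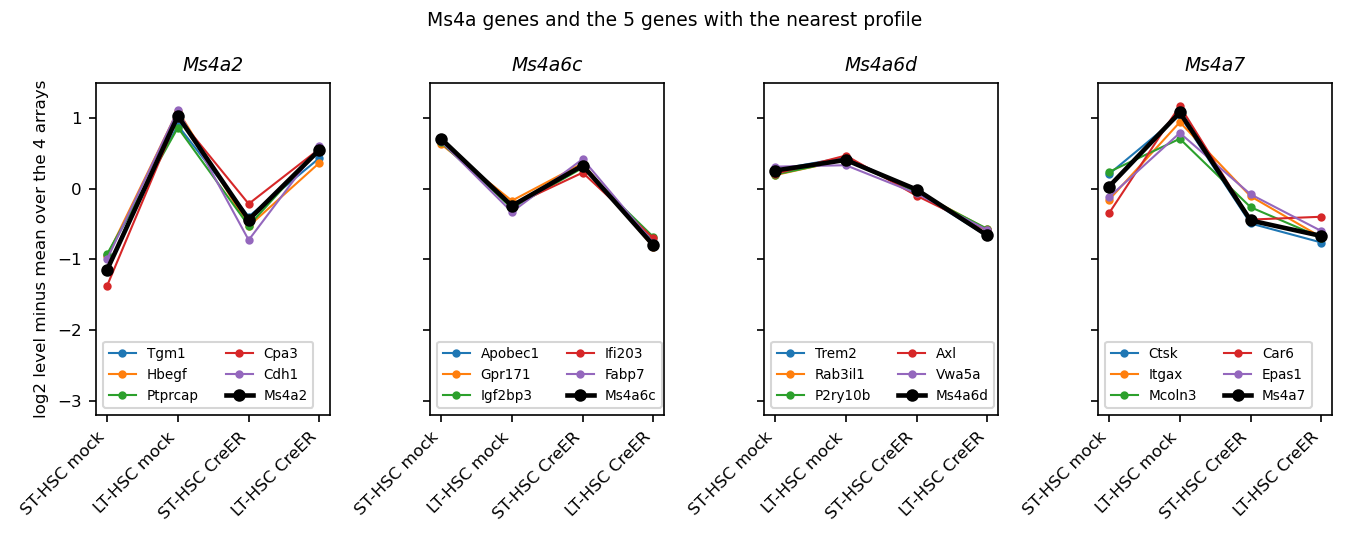
Log2 level minus the mean over the 4 arrays for Ms4a2, Ms4a6c, Ms4a6d and Ms4a7 (black) and for the 5 genes nearest to each (coloured), 1 point per array. Apobec1 and Trem2, each at a distance of 0.05, nearly cover Ms4a6c and Ms4a6d.

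Along chromosome 19, RefSeq places 22 protein-coding genes from Ms4a10 to Ms4a3, of which 21 carry an Ms4a symbol and 19 of these were measured. Above the floor on at least 1 array were 8 of the 19, and on all 4 arrays 4, namely Ms4a3, Ms4a6c, Ms4a6d and Ms4a8a. The 3 genes at the Ms4a3 end, Ms4a6d, Ms4a2 and Ms4a3, are neighbours and gave 3 different profiles. On LT-HSC mock against ST-HSC mock they differed by 0.15, 2.18 and -0.74, and on LT-HSC CreER against LT-HSC mock by -1.07, -0.48 and 0.61.

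Ms4a4a, a macrophage gene next to Ms4a7, followed the order of Ms4a7, with 8.55 on LT-HSC mock and levels under the floor elsewhere, at 7.64 on ST-HSC mock, 7.53 on ST-HSC CreER and 7.45 on LT-HSC CreER. Ms4a8a was at 10.20 on LT-HSC mock, 9.72 on ST-HSC CreER, 9.52 on ST-HSC mock and 9.05 on LT-HSC CreER. Both were at least 2-fold lower on LT-HSC CreER than on LT-HSC mock, by -1.10 and -1.15. Of the 8 Ms4a genes of the cluster above the floor on at least 1 array, 4 thus met the size rule between the LT-HSC arrays. They were Ms4a7, Ms4a4a, Ms4a6d and Ms4a8a, all lower with CreER, against 0.875% of all genes past the floor that were 2-fold apart. Ms4a15, among the 8, was under the floor on both LT-HSC arrays and so lies outside the set of that share. Ms4a7 and Ms4a4a were under the floor on LT-HSC CreER, so the sizes of their differences are uncertain. The genes on either side of the cluster did not meet it: Ccdc86 differed by -0.17 and Oosp2, under the floor, by 0.10.

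**Figure D5:**
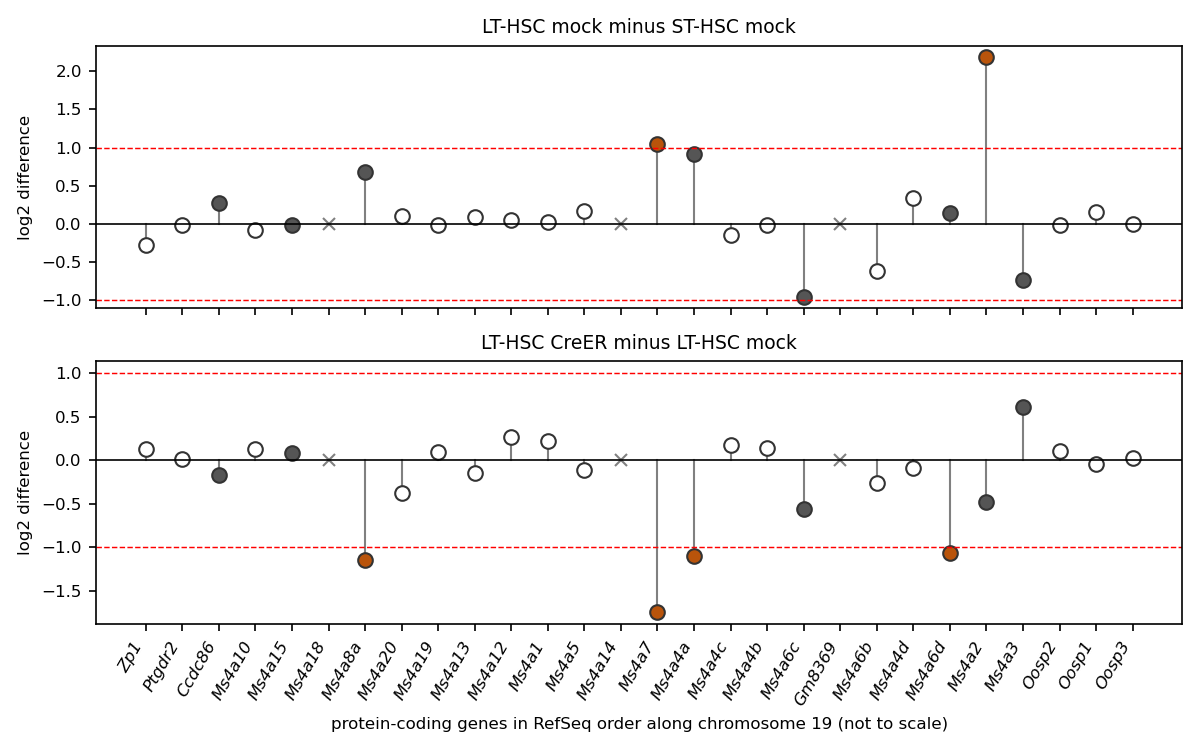
Log2 difference of the genes of the Ms4a cluster and 3 genes on either side, in RefSeq order along chromosome 19 and not to scale, for LT-HSC mock minus ST-HSC mock (top) and LT-HSC CreER minus LT-HSC mock (bottom). Orange points met the size rule, grey points were above the signal floor on at least 1 array, open points were under it, crosses were not measured, and dashed lines mark 2-fold. Ms4a2 (2.18, top) and Ms4a7 (-1.75, bottom) lie furthest from 0.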

How the data were processed

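The authors deposited a table of log2 expression values per probe set for 4 arrays, made with Affymetrix Expression Console per the submitters' processing notes. No source used here states its version, summarisation or normalization, and log2 was read from the range of 2.21 to 14.82. Values were used as deposited. Of 35556 probe sets the platform annotation gave 21789 1 gene symbol, 1621 several and 12146 none. The 999 genes with several probe sets were represented by the brightest, and each Ms4a gene has 1. RefSeq (GRCm38.p6) held the gene numbers of 21698 probe sets.

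A gene counted as different at an absolute log2 difference of at least 1 with the higher array above its signal floor (the median over probe sets with 1 symbol). Array summaries shrink differences of dim probe sets. The additive model used lmFit and eBayes of limma 3.58.1 in R 4.3.3, with 4.27 prior degrees of freedom and Benjamini-Hochberg adjustment over all genes fitted. It was run on simulated data with additive effects and noise drawn from the fitted prior. That run left out unlike CreER effects in the populations, so it cannot show how well the p-values hold for these arrays.

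Named were every Ms4a member, Fcer1a and Fcer1g, the 5 genes nearest in profile to each member that met the size rule, and from each list up to 4 genes with the largest difference. Others, such as Mpo, Syk, Inpp5d, Thy1, Pax5, Ebf1 and neighbours in the cluster, were chosen after their values were seen. Members, lists and promoter motifs were chosen with earlier results of these data known. Promoters came from RefSeq and were aligned with scores of 1 for a match, -1 for a mismatch, -2 to open and -0.5 to extend a gap.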

Additional observations from a re-analysis of the deposited data

Results flagged for a closer look

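Each result here went one way in one population or transduction and the other way in the other, with 1 array per group, so the difference was not tested. CreER minus mock for Ms4a2 was -0.48 in colonies from LT-HSC and 0.71 in those from ST-HSC, and for Fcer1a it was -1.30 and 1.01. LT-HSC minus ST-HSC for Ms4a6d was 0.15 with mock and -0.65 with CreER. For Ms4a7 it was 1.05 with mock and -0.21 with CreER, both levels with CreER being under the signal floor. Fcer1g had small differences of opposite sign, 0.11 with mock and -0.14 with CreER for LT-HSC minus ST-HSC, and -0.19 in colonies from LT-HSC and 0.05 in those from ST-HSC for CreER minus mock. Groups of 1 array cannot be searched for outlying samples.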

How the results depend on the processing

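The labels give no replicate numbers to pair samples by, and the additive fit already sets CreER against mock within each population. Leaving out an array would leave that fit no residual degrees of freedom. Under quantile and cyclic loess normalization, median centring and the mean of probe sets, 143 of 144 member differences stayed on their side of the size rule. The other was that of Ms4a2 for LT-HSC CreER minus ST-HSC CreER, 1.02 after quantile normalization, which brought the count of members there to 2. None that met the rule changed sign, and 2 differences near 0 did, those of Ms4a1 and Ms4a4b. With a floor at the 75th percentile, counts were 1 for the mock arrays, 0 for the CreER arrays and 1 for the LT-HSC arrays. The shares of all genes past that floor were 3.23%, 1.8% and 1.03%. At 3-fold the counts were likewise 1, 0 and 1, against 1.4%, 0.658% and 0.118% of all genes. At 1.5-fold they were 4 for the mock arrays, 3 for the CreER arrays, 3 for the LT-HSC arrays and 1 for the ST-HSC arrays. The shares of all genes rose as well, to 8.08%, 6.84%, 4.1% and 1.99%. In the additive limma fit for LT-HSC against ST-HSC, the count of members was 1, Ms4a6c, after quantile or cyclic loess normalization, with the floor at the 75th percentile and with the mean of probe sets. With no floor it was 3, as Ms4a6b, which the floor had kept out of the fit, was added. The cause of the lower counts was not tested. All genes passing numbered 653, against 368 with cyclic loess and 186 with that floor, which left 5425 genes, and against 1401 at an adjusted p of 0.1. The count of members for CreER against mock stayed 0 in limma under all 8 alternatives. Signal near background limits Ms4a1, Ms4a4b, Ms4a4c, Ms4a6b and the low levels of Ms4a2 and Ms4a7.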

Other observations

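Tmem176a and Tmem176b, distant relatives of the Ms4a genes that lie outside the cluster and are known from dendritic cells and macrophages, were higher in LT-HSC-derived colonies. Tmem176b was at 9.77 on LT-HSC CreER, 9.05 on LT-HSC mock, 8.04 on ST-HSC mock and 7.98 on ST-HSC CreER. Both ST-HSC levels were under the floor, so the sizes that follow are uncertain. Its LT-HSC minus ST-HSC difference was 1.01 with mock and 1.80 with CreER, and the additive effect was 1.40 (SE 0.19, limma adjusted p = 0.0232). Tmem176a likewise lay under the floor on both ST-HSC arrays, at 7.67 and 7.63, and reached 8.64 on LT-HSC CreER and 8.24 on LT-HSC mock. Unlike Ms4a7 and Ms4a6d, both genes had a higher level on LT-HSC CreER than on LT-HSC mock, by 0.72 for Tmem176b and 0.40 for Tmem176a. Of the other 10 measured Ms4a genes, 7 stood under the floor on all 4 arrays.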
